A study of Caenorhabditis elegans with 9 samples.

Results

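The 47 piRNAs described here were the well-measured piRNAs whose sense read rate stayed at 0.5 or more of its level in the other genotypes when the PAZ domain of the Argonaute protein PRG-1 was deleted. They were selected on their own sense counts, out of 15913 piRNAdb entries of Caenorhabditis elegans. A rate was the sense reads of an entry per 1000000 genome-mapped reads (RPM), and the pooled rate of a genotype was its summed reads over its summed genome-mapped reads. An entry was chosen by 3 criteria: at least 40 sense reads in wild type and RNase-dead together, a pooled RNase-dead rate under 2 times that of wild type, and a pooled PAZ-deletion rate at least 0.5 of the rate pooled over the other genotypes. Of 281 entries with the reads, 64 were at 2-fold or more in RNase-dead, 7 were left out by name, 163 fell under 0.5 in PAZ-deletion, and 47 (16.7%) were retained. Because these criteria used the sense counts of every genotype, the sense rates below are a description of the chosen entries. Calls from the fit over all entries are given for the record, with their dependence on settings, and support nothing about the 47.

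The study profiled small RNAs from whole adult hermaphrodites of 3 genotypes, with 3 libraries each, to compare piRNA levels. The genotypes were Wild Type, prg-1(Rnase-dead), named for a dead RNase activity, and prg-1(∆PAZ-domain). Animals were collected in pools of 20 to 30 at mid-L4 from stocks kept at 25 °C, and RNA was taken 24 h later. No allele name or strain was used here, and the tables hold small RNA reads only, so neither prg-1 itself nor a marker of the germline could be checked. Nothing in the labels says that the libraries of a genotype came from separate cultures, so spreads and p-values refer to these libraries and may be technical. In RNA from whole animals, fewer germ cells and less piRNA per germ cell cannot be told apart.

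In C. elegans, piRNAs are short germline RNAs that mostly begin with uridine, are processed from short individual precursors and are held by PRG-1, without which they are lost. PRG-1 guided by a piRNA recruits an RNA-dependent RNA polymerase to the matching transcript, and the secondary siRNAs made there silence it. In Argonaute proteins the PAZ domain anchors the guide by its 3′ end, while the RNase H-like PIWI domain carries the catalytic residues for slicing. The role of each single piRNA entry named below is not annotated in the tables.

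Libraries held 1022428 to 3121968 genome-mapped reads and 1714 to 20802 sense piRNA reads, so that 1 read stood for 0.320 to 0.978 RPM. Replicate 2 of wild type had the lowest sense piRNA rate of its genotype, and replicate 1 of PAZ-deletion was the shallowest library of all. The share of reads in the genome segment with the ribosomal RNA genes, which are part of the denominator, was 10.1% ± 5.54 in the wild type libraries, 4.65% ± 0.802 in those of PAZ-deletion and 2.27% ± 0.546 in those of RNase-dead (SD, n = 3 each). The part of these shares in the rates was not tested beyond the denominator without that segment, with which 49 entries met the criteria.

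Summed over the 47 retained piRNAs, the rates of the genotypes overlapped, while the 163 entries under 0.5 fell to a small part of their level, as the criteria required of each group. The retained piRNAs summed to 426, 265 and 348 RPM in wild type replicates 1, 2 and 3. They summed to 451, 383 and 386 RPM in RNase-dead and to 241, 353 and 385 RPM in PAZ-deletion. The PAZ-deletion libraries overlapped those of both other genotypes, with replicate 1 below all other libraries. The mean was 326 ± 75.8 RPM in PAZ-deletion, beside a wild type mean of 346 ± 80.3 and an RNase-dead mean of 407 ± 38.4 (SD, n = 3 each). The PAZ-deletion mean was thus 94.2% of wild type and 80.2% of RNase-dead, and without PAZ-deletion replicate 1 these became 107% and 90.7%. The 163 entries under 0.5 summed to 217 ± 15.2 RPM in PAZ-deletion, beside 1542 ± 459 in wild type and 1920 ± 141 in RNase-dead, so that PAZ-deletion was at 14.1% of wild type.

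The retained piRNAs made up a larger share of the sense piRNA reads in PAZ-deletion than in either other genotype, which the criteria largely set in advance. Entries had to stay at 0.5 or more, while the mean rate of all sense piRNA reads in PAZ-deletion was 39.1% of wild type and 29.8% of RNase-dead. The retained piRNAs held 7.18, 8.07 and 7.18% of sense piRNA reads in the wild type libraries and 6.77, 6.77 and 6.32% in RNase-dead. In PAZ-deletion they held 14.4, 19.0 and 19.6%, all above the other 6 libraries. The means were 7.48% ± 0.514, 6.62% ± 0.262 and 17.7% ± 2.90 (SD, n = 3 each). Of the 20 entries with the highest pooled rate in PAZ-deletion, 8 were retained ones, and the 7 entries left out by name were also among the 20. Of the corresponding 20 in wild type 2 were retained ones, as were 2 of those in RNase-dead.

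**Figure D1:**
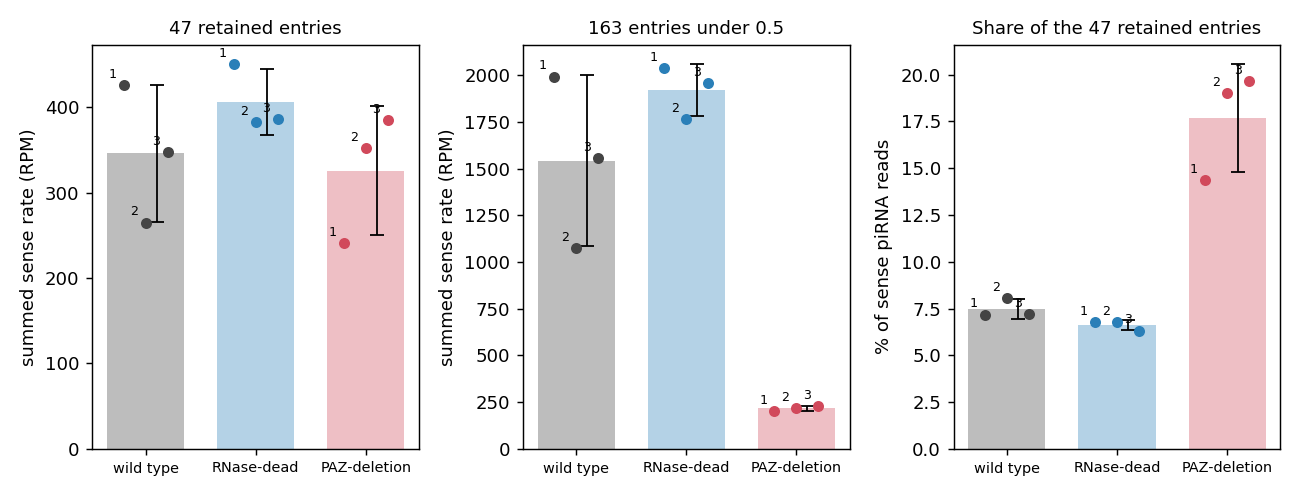
Summed sense rate of the 47 retained entries (left, RPM), of the 163 entries under 0.5 (middle, RPM) and share of all sense piRNA reads held by the 47 (right, %). Bars are means of 3 libraries, error bars the SD, and numbered points the replicates. The retained sums overlap between genotypes, from 241 to 385 RPM in PAZ-deletion, while their share of reads was 14.4 to 19.6% there.

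Entries lay on both sides of the limit on the ratio of the PAZ-deletion rate to the rate pooled over the other genotypes. Among the 210 entries that met the first 2 criteria, 79 lay under 0.1, 14 lay from 0.4 to 0.5, 5 from 0.5 to 0.6, 9 from 0.6 to 0.7 and 12 from 0.7 to 0.8. The retained entries ran from 0.529 to 1.75 with a median of 0.784, against a median of 0.106 for the 163. At the edge, cel-piR-10509 (0.529), cel-piR-6201 (0.562) and cel-piR-1861 (0.583) were the lowest inside. Just outside were cel-piR-15622 (0.5 after rounding), cel-piR-5403 (0.494) and cel-piR-6357 (0.490), with 42, 79 and 208 reads in wild type and RNase-dead together. The exact 95% binomial interval of the ratio, which covers counting error only, lay wholly above 0.5 for 20 of the 47. It held 0.5 for the other 27. Over all 281 well-measured entries these counts were 29 and 93. The criteria cut this same ratio at 0.5, so the counts describe the choice. A further 22 entries met the other criteria with 30 to 39 reads.

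**Figure D2:**
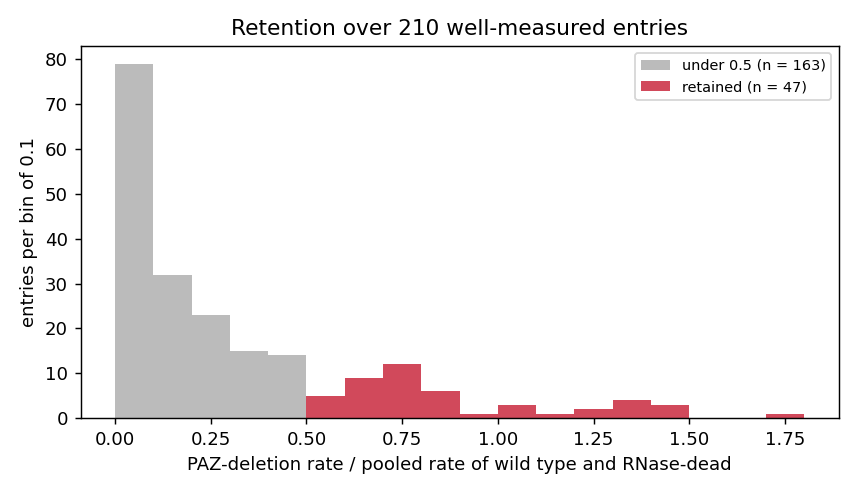
Number of well-measured entries (vertical axis, per bin of 0.1) by the ratio of the pooled PAZ-deletion rate to the rate pooled over wild type and RNase-dead (horizontal axis, no unit). Grey is the 163 entries under 0.5 and red the 47 retained ones. Counts fall from 79 in the lowest bin to 14 just under 0.5 and 5 just above it, and reach 12 from 0.7 to 0.8.

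Most retained piRNAs were of modest abundance. Pooled rates in wild type and RNase-dead together ran from 2.90 to 42.3 RPM with a median of 5.18, and 40 of the 47 lay under 10 RPM. The 163 entries under 0.5 covered 2.76 to 114 RPM with a median of 5.39. When the 210 entries were put into equal groups of 70 by rate, 16 of the lowest group, 19 of the middle and 12 of the highest were retained. The most abundant 6 held 43.4% of the sense reads of all 47.

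**Figure D3:**
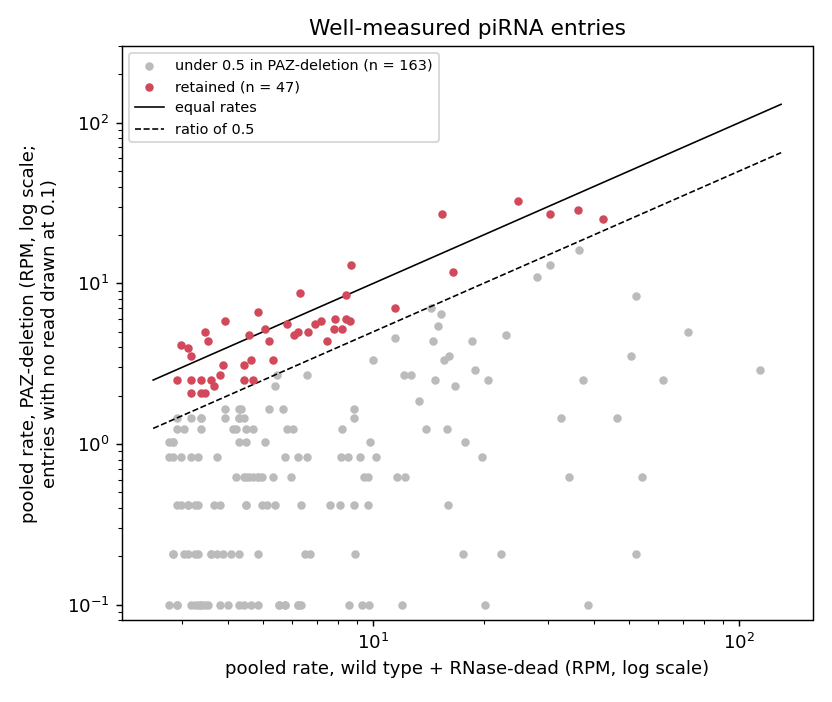
Pooled sense rate in PAZ-deletion (vertical, RPM, log scale) against the rate pooled over wild type and RNase-dead (horizontal, RPM, log scale) for 210 entries. Each point is an entry, red where retained; entries with no PAZ-deletion read are drawn at 0.1, the solid line marks equal rates and the dashed line a ratio of 0.5. Retained entries lie at 2.90 to 42.3 RPM on the horizontal axis, and 4 of them at 20 RPM or more.

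The most abundant retained piRNA was cel-piR-9221, at 45.8, 25.6 and 18.1 RPM in wild type. It was at 57.7, 44.3 and 57.6 RPM in RNase-dead and at 9.78, 28.4 and 30.8 RPM in PAZ-deletion. PAZ-deletion lay below every RNase-dead library and overlapped wild type. Its means were 29.8 ± 14.3, 53.2 ± 7.73 and 23.0 ± 11.5 RPM (SD, n = 3 each), and its PAZ-deletion ratio of 0.598 was among the 5 lowest.

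cel-piR-15095 was at 27.2, 26.3 and 28.1 RPM in wild type, at 59.9, 38.6 and 28.8 RPM in RNase-dead and at 14.7, 32.6 and 32 RPM in PAZ-deletion. Replicate 1 of PAZ-deletion was the lowest of the 9 libraries and the other two lay above wild type. cel-piR-1430 was at 37.1, 7.04 and 25.3 RPM in wild type, where replicate 2 stood far below the others. It was at 40.7, 27.8 and 34.4 RPM in RNase-dead and at 15.6, 33.1 and 26.7 RPM in PAZ-deletion, and the PAZ-deletion values lay inside the wild type range.

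cel-piR-8748 was at 23.1, 23.1 and 28.8 RPM in wild type, at 23.1, 31.1 and 19.4 RPM in RNase-dead and at 24.5, 35.4 and 33.2 RPM in PAZ-deletion. All genotypes overlapped, with a pooled PAZ-deletion ratio of 1.30 (95% interval 1.07 to 1.58). By pooled rate it ranked 4 among all entries in PAZ-deletion, beside 21 for wild type and 40 for RNase-dead.

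cel-piR-15149 had the highest ratio of the 47, at 1.75 (1.40 to 2.18). It was at 17.7, 11.5 and 14.4 RPM in wild type, at 14.1, 17.4 and 16.8 RPM in RNase-dead and at 24.5, 31.7 and 22.5 RPM in PAZ-deletion. Every PAZ-deletion library lay above the other 6, which held for no other retained entry and for 4 of all 281 well-measured entries. Its means were 14.5 ± 3.11, 16.1 ± 1.76 and 26.2 ± 4.83 RPM (SD, n = 3 each), and its rank moved from 43 in wild type and 64 in RNase-dead to 8 in PAZ-deletion.

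**Figure D4:**
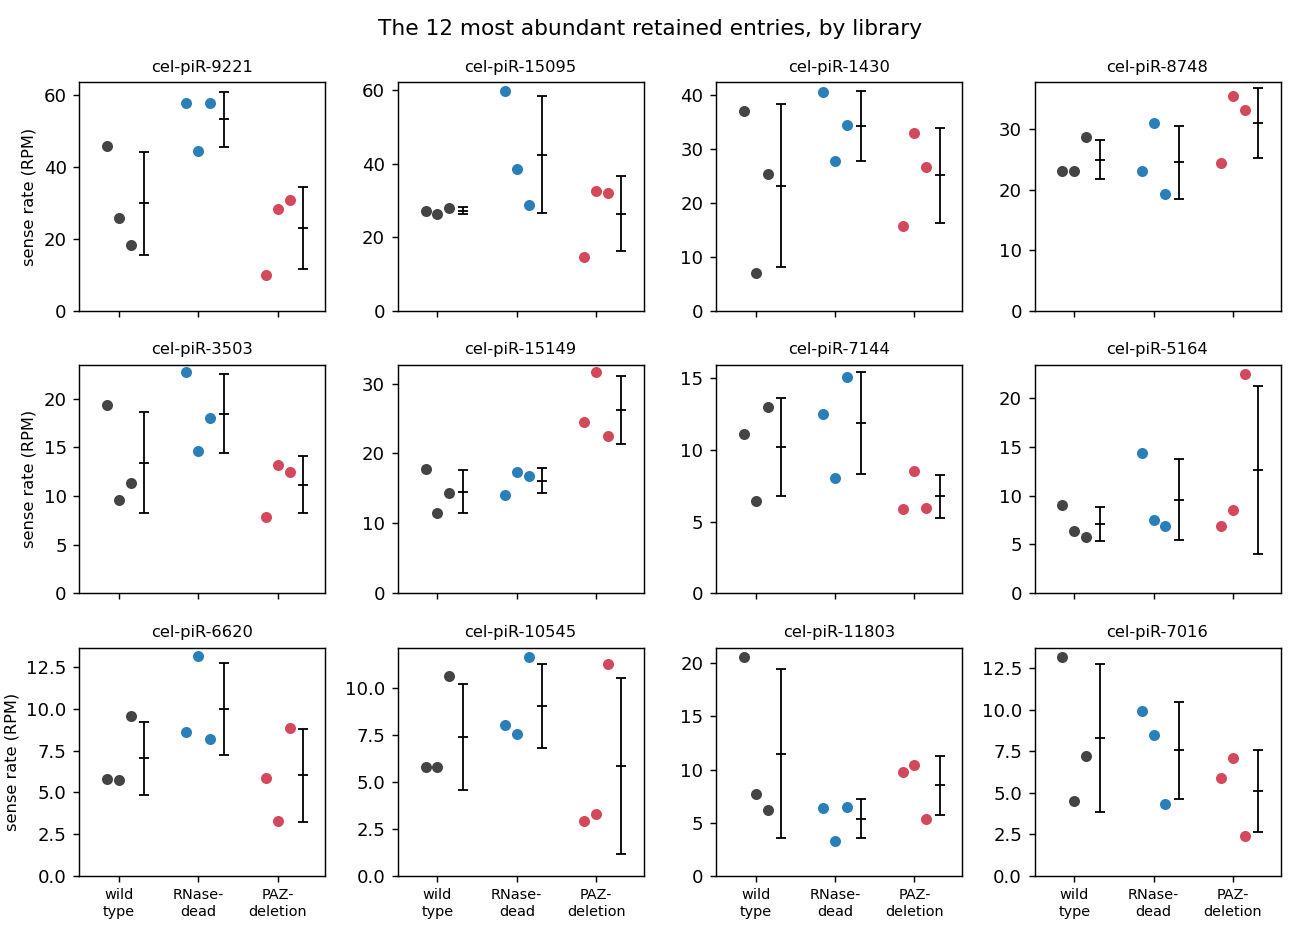
Sense rate (vertical axis, RPM) of the 12 most abundant retained entries by genotype (horizontal axis), with a vertical scale of its own in each panel. Points are libraries in the order of replicates 1, 2 and 3, and bars the mean ± SD (n = 3). cel-piR-15149 is the entry whose PAZ-deletion libraries, at 22.5 to 31.7 RPM, all lie above the other 6.

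cel-piR-5164 had the next highest ratio, 1.5 (1.09 to 2.05), and 1 library carried it. It was at 9.07, 6.4 and 5.82 RPM in wild type, at 14.4, 7.53 and 6.88 RPM in RNase-dead and at 6.85, 8.51 and 22.5 RPM in PAZ-deletion. Replicate 3 of PAZ-deletion was the highest of the 9 libraries, while the other two fell among the rest. cel-piR-11803 was at 20.6, 7.69 and 6.16 RPM in wild type, with replicate 1 the highest of the 9 libraries. It was at 6.41, 3.30 and 6.45 RPM in RNase-dead and at 9.78, 10.4 and 5.33 RPM in PAZ-deletion, and its ratio of 1.01 rested on overlapping libraries.

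The other abundant entries lay lower in PAZ-deletion, with overlap. cel-piR-3503 was at 19.4, 9.61 and 11.3 RPM in wild type, at 22.7, 14.6 and 18.1 RPM in RNase-dead and at 7.82, 13.2 and 12.4 RPM in PAZ-deletion. cel-piR-7144 was at 11.1, 6.4 and 13.0 RPM, then 12.5, 8.0 and 15.1 RPM, then 5.87, 8.51 and 5.92 RPM in the same order of genotypes. The intervals of both ratios, 0.715 (0.526 to 0.959) and 0.614 (0.412 to 0.893), lay below 1. cel-piR-6620, cel-piR-10545 and cel-piR-7016, at pooled rates of 8.63, 8.43 and 8.22 RPM in wild type and RNase-dead, had ratios of 0.672, 0.713 and 0.630. Their PAZ-deletion libraries were at 5.87, 3.31 and 8.89 RPM for cel-piR-6620, at 2.93, 3.31 and 11.3 RPM for cel-piR-10545 and at 5.87, 7.09 and 2.37 RPM for cel-piR-7016. Each of these 3 had at least 1 PAZ-deletion library inside the range of the other 6. The library with the highest PAZ-deletion rate was replicate 3 for cel-piR-6620 and cel-piR-10545 and replicate 2 for cel-piR-7016. The remaining 35 entries lay at 2.90 to 7.87 RPM.

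Among these less abundant entries, high ratios rested on few reads. cel-piR-4184 had a ratio of 1.47, at 2.47, 3.84 and 3.77 RPM in wild type, 6.09, 3.77 and 3.01 RPM in RNase-dead and 0.978, 6.14 and 8.29 RPM in PAZ-deletion. Its PAZ-deletion libraries included both the lowest and the highest value of the 9. cel-piR-6826 (1.44) and cel-piR-14009 (1.40) had 24 and 20 PAZ-deletion reads, and the intervals of both held 1. cel-piR-6826 was at 4.54, 1.92 and 3.42 RPM in wild type, 3.84, 4.24 and 2.15 RPM in RNase-dead and 4.89, 6.14 and 3.55 RPM in PAZ-deletion. cel-piR-14009 was at 6.19, 3.20 and 1.37 RPM, then 3.84, 1.88 and 1.29 RPM, then 5.87, 2.36 and 5.33 RPM in the same order. The genotypes overlapped in both.

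At the low end, cel-piR-10509 was at 5.36, 3.20 and 5.13 RPM in wild type, 4.80, 3.77 and 5.16 RPM in RNase-dead and 1.96, 2.36 and 2.96 RPM in PAZ-deletion. Every PAZ-deletion library lay below the other 6, which held for no other retained entry and for 120 of the 163 entries under 0.5. cel-piR-6201 was at 4.95, 2.56 and 3.77 RPM in wild type, 4.16, 6.12 and 4.73 RPM in RNase-dead and 0, 3.31 and 2.96 RPM in PAZ-deletion. The 0 allows up to 2.93 RPM (3 reads) in that library, close to the values of the other PAZ-deletion libraries. cel-piR-1861 (0.583) and cel-piR-4619 (0.600) had 21 and 10 PAZ-deletion reads. In PAZ-deletion cel-piR-1861 was at 1.96, 3.31 and 7.11 RPM and cel-piR-4619 at 3.91, 1.89 and 1.18 RPM. Replicate 3 was thus the highest for the former and the lowest for the latter.

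Across the 47, the pooled PAZ-deletion rate lay above both other genotypes in 11, between them in 11 and below both in 25. Over all 281 well-measured entries, the 47 included, these counts were 15, 20 and 246. The limit of 0.5 on the ratio partly set such counts in advance, so they describe the choice. The PAZ-deletion rate was at or above the pooled rate of the others in 14 of the 47, beside 23 of the 281. The counting interval held 1 in 37, lay above 1 in 3 and below 1 in 7, beside 46, 7 and 228 of the 281. It is an interval of the ratio that the criteria cut and leaves out the spread between libraries. These counts are thus no test of the 47. Libraries of PAZ-deletion overlapped the other 6 in 45 of the 47 entries, beside 127 of the 281. All 9 libraries held a read for 40 of the 47, beside 130 of the 281. At least 1 PAZ-deletion library had no read for 4 of the 47, beside 145 of the 281.

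Single PAZ-deletion libraries differed in how far they retained the entries. Taken alone, replicate 1 gave a ratio of 0.5 or more in 24 of the 47 with a median of 0.506, replicate 2 in 40 with a median of 0.802 and replicate 3 in 44 with a median of 1.01. A ratio of 0.5 or more was reached in each of the 3 libraries by 17 entries, in 2 by 27 and in 1 by 3. Replicates 1, 2 and 3 were the single lowest of the genotype in 30, 7 and 10 of the 47 (63.8, 14.9 and 21.3%). Among the 163 entries under 0.5 they were so in 42, 32 and 27 (25.8, 19.6 and 16.6% of all 163). Entries whose lowest libraries tied count in the 163 but for no replicate, which lowers all of these shares. The percentages of the 47 and the 163 are therefore not directly comparable. The summed rate of the retained entries varied 1.60-fold between PAZ-deletion libraries, that of the 163 by 1.15-fold and all sense piRNA reads by 1.17-fold. Without replicate 1, 50 entries met the criteria, without replicate 2 54 and without replicate 3 45. Replicate 1 was also the shallowest library, and the part of its depth in this order was not tested.

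**Figure D5:**
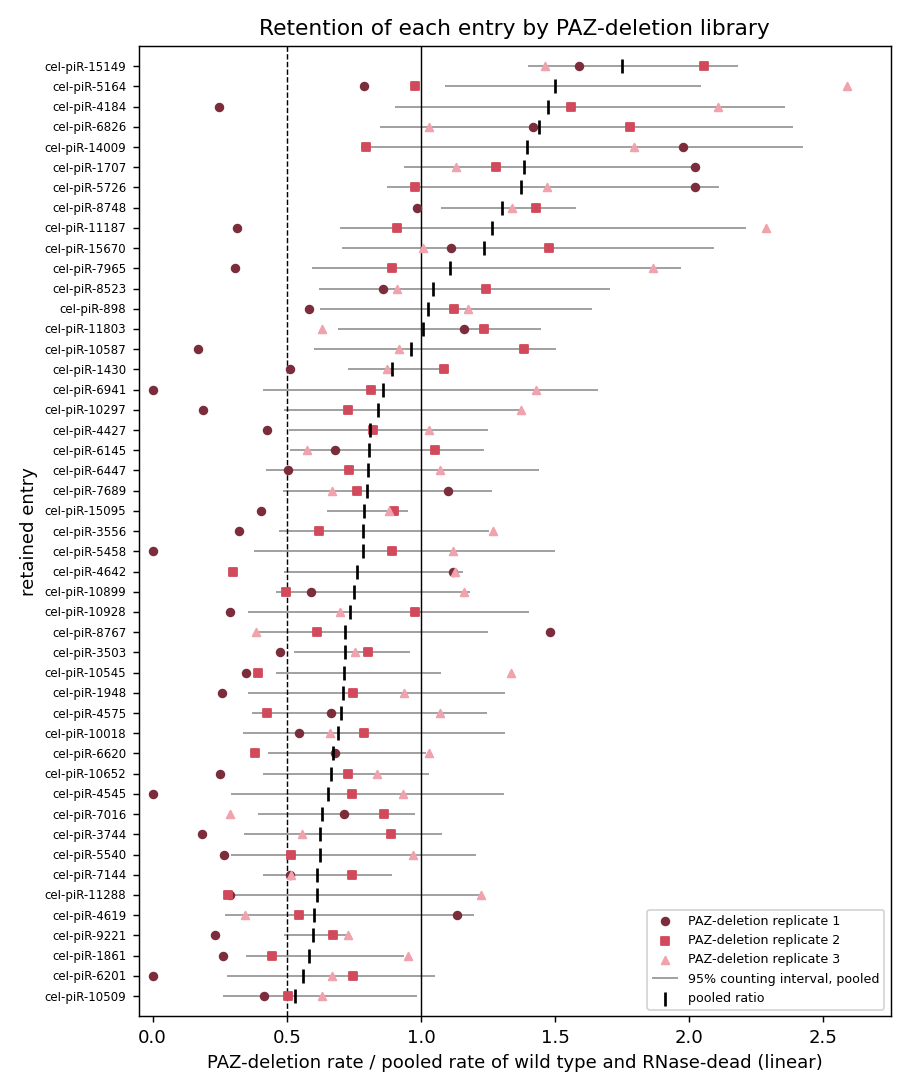
Ratio of the rate in each single PAZ-deletion library to the rate pooled over wild type and RNase-dead, (horizontal axis, no unit) for each of the 47 retained entries (vertical axis). Symbols are the PAZ-deletion libraries, ticks the pooled ratio, horizontal lines its 95% counting interval, the dashed line a ratio of 0.5 and the solid line equal rates. The medians were 0.506, 0.802 and 1.01 in replicates 1, 2 and 3.

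In wild type the order of libraries was shared with the other well-measured entries. Replicate 2 was lowest in 28 of the 47 (59.6%) and in 108 of the 163 (66.3%), and replicate 1 highest in 26 (55.3%) and 103 (63.2%). In RNase-dead, replicates 1, 2 and 3 were lowest about equally often among the 47, in 15, 16 and 16. Among the 163 they were lowest in 31, 73 and 59 (19.0, 44.8 and 36.2%). The median coefficient of variation between libraries for the retained entries was 48.0% in PAZ-deletion, beside 38.7% for wild type and 26.3% for RNase-dead. For the 163 it was 88.7, 48.2 and 26.3% in this order. Among entries with 40 to 120 reads in wild type and RNase-dead, a range chosen after seeing the data, it was 53.5% in PAZ-deletion for 36 retained entries and 101% for 106 of the 163. This range does not match reads in PAZ-deletion, of which the criteria left the 163 fewer. At least 1 PAZ-deletion library had no read for 109 of the 163, beside 4 of the 47. The part of counting error in these spreads was not tested.

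In RNase-dead the retained piRNAs lay on both sides of their wild type rate, below the limit the criteria set. The ratio of RNase-dead to wild type had a median of 1.09 and ran from 0.179 to 1.88, with 28 entries above 1 and 19 below. The median of the 163 was 1.22. Nearest to the limit of 2 were cel-piR-10018 (1.88), cel-piR-10587 (1.82) and cel-piR-8523 (1.82). cel-piR-10587 was at 8.66, 0.640 and 2.05 RPM in wild type and at 7.69, 6.12 and 8.17 RPM in RNase-dead, so wild type replicate 1 lay above all RNase-dead libraries and its other replicates below them. cel-piR-8523 was at 2.47, 3.84 and 3.42 RPM in wild type, 5.12, 6.59 and 6.02 RPM in RNase-dead and 3.91, 5.67 and 4.15 RPM in PAZ-deletion. Both mutants lay above every wild type library, and besides cel-piR-15149 it was the 1 retained entry whose PAZ-deletion libraries did so. Among all 281 well-measured entries, the PAZ-deletion libraries of 8 did so. cel-piR-10018 was at 3.71, 1.28 and 2.05 RPM in wild type and at 5.45, 3.77 and 4.30 RPM in RNase-dead, without overlap. Its PAZ-deletion libraries, at 1.96, 2.84 and 2.37 RPM, lay inside the wild type range. Outside the limit, 7 of the 64 entries at 2-fold or more also had a PAZ-deletion ratio of 0.5 or more, the nearest at a RNase-dead ratio of 2.00.

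The exception at the low end was cel-piR-8767, at 12.8, 8.97 and 3.77 RPM in wild type and at 0, 3.77 and 1.29 RPM in RNase-dead. It was at 6.85, 2.84 and 1.78 RPM in PAZ-deletion, which overlapped both. cel-piR-11803, above, was the other entry at 0.5 or less of wild type in RNase-dead (0.479).

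For the record of single-entry calls, all 47 passed the filter of 10 reads and 3 libraries in edgeR's quasi-likelihood test over 1067 entries. At a Benjamini-Hochberg FDR of 0.05, 0 of the 47 were called between PAZ-deletion and wild type, where 20.5% of all tested entries were. At an unadjusted p under 0.05 there was 1 higher and 1 lower, and DESeq2 on the same library sizes called 0. Other scalings called some of the 47, all higher in PAZ-deletion. There were 2 with TMM factors, 3 with DESeq2 median-ratio factors and 17 with summed sense piRNA counts as library sizes. Among all 1067 entries, 23, 27 and 78 were called higher under these scalings, and 154, 82 and 75 lower. Between PAZ-deletion and RNase-dead, 1 of the 47 was called (cel-piR-9221, lower), against 28.8% of tested entries, with an FDR of 0.00221 to 0.956 over all alternatives. This call was lost without PAZ-deletion replicate 1 (FDR 0.0950), with no count filter (FDR 0.0511) and with TMM factors (FDR 0.278). Its log2 change turned positive with DESeq2 median-ratio factors (0.0303) and with summed piRNA counts (0.57). Under these and TMM factors other entries of the 47 were called higher (10, 23 and 7, beside 36, 94 and 30 of all 1067). Between RNase-dead and wild type, 1 was called (cel-piR-8767, lower), against 2.16%, with an FDR of 0.000216 to 0.463 over all alternatives. This call was lost with no count filter (FDR 0.080) and without wild type replicate 1 (FDR 0.0725), RNase-dead replicate 1 (FDR 0.463) or RNase-dead replicate 3 (FDR 0.186). These contrasts chose the entries, so nothing is read from the counts. The median log2 fold change of the 47 was -0.27 against wild type and -0.45 against RNase-dead in PAZ-deletion, beside -1.25 and -1.69 over all tested entries.

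Antisense reads were not used to choose the entries. They were rare: 38 of the 47 retained entries (80.9%) and 138 of the 163 (84.7%) had none in any library. The 47 had 86 antisense beside 7223 sense reads (1.18% of both, beside 0.276% for the 163), and 74 of the 86 belonged to cel-piR-8767. Without it, antisense reads were 0.168% of the reads of the retained entries. No entry was left out of the 163 in this way, of which 3 had at least 10 antisense reads, beside 1 of the 47. The share was 0.342% over all 281 well-measured entries. Sense reads are part of its denominator, so the read minimum partly sets a low share in advance. Over all entries, with no read minimum, the share was 8.55 to 11% in the wild type libraries. It was 7.17 to 8.34% in RNase-dead and 16.1 to 19.2% in PAZ-deletion.

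cel-piR-8767 was the 1 retained entry with enough antisense reads to test. Its antisense rate was 2.47, 2.56 and 2.40 RPM in wild type. It was 3.84, 4.24 and 3.87 RPM in RNase-dead, and 2.93, 7.56 and 4.74 RPM in PAZ-deletion. All RNase-dead and all PAZ-deletion libraries lay above wild type, and PAZ-deletion overlapped RNase-dead. The means were 2.48 ± 0.0829, 3.98 ± 0.220 and 5.08 ± 2.33 RPM (SD, n = 3 each). In edgeR's test over 127 entries, the log2 difference from wild type was 1.09 ± 0.66 (SE, FDR 0.308) in PAZ-deletion and 0.67 ± 0.65 (FDR 0.932) in RNase-dead, and PAZ-deletion differed from RNase-dead by 0.41 ± 0.62 (FDR 0.697). None passed, where 17.3, 0.787 and 20.5% of tested entries did. In simulated antisense data this test recovered 0% of 2-fold changes in PAZ-deletion against either other genotype. That rested on 5 changed entries against wild type and 13 against RNase-dead, drawn from all tested entries. A change of this size could thus go uncalled, but recovery at the read numbers of cel-piR-8767 was not tested. Antisense reads made up 47.1% of the reads of cel-piR-8767, the highest share among the 281 well-measured entries.

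Of the others, cel-piR-10545 had 3 antisense reads, all in PAZ-deletion, where its mean was 0.513 ± 0.478 RPM (SD, n = 3) with none in the other genotypes. cel-piR-4575 had 1 in wild type and 1 in RNase-dead. Another had 2, and 5 had 1 each, all at or below the 3 reads that a count of 0 allows.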

How the data were processed

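Small RNA of 9 libraries had been extracted with a mirVana kit and treated with a pyrophosphatase that makes RNAs with a 5′ triphosphate clonable, per the labels' protocols. The deposited values were raw counts of sense and antisense reads per piRNAdb entry and of reads per genome segment, per the file headers. The total row was left out of tests, and no value column lacked a sample (0). FastQC 0.12.0 and cutadapt 3.7 were used, per the submitters' processing notes. Not given in the sources used here were the aligner, the genome build and how multiply matching reads were counted, so entries of near-identical sequence may share reads. The deposited tables give neither sequences nor positions for the entries, and none are printed.

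Rates were reads per 1000000 genome-mapped reads. Counts were tested with edgeR 4.0.16 (R 4.3.3), by glmQLFit and glmQLFTest. Genome-mapped reads were the library sizes, and 1 fit held all 9 libraries. The filter asked for 10 reads over all libraries and for reads in 3 of them, with Benjamini-Hochberg adjustment at 0.05. The fits were tested on simulated data. Over the contrasts, 5.45 to 7.14% of 2-fold sense changes were recovered, 20.3 to 32.1% of 4-fold and 57.6 to 69.6% of 8-fold ones. For antisense reads these were 0 to 12.5%, 33.3 to 40% and 53.3 to 87.5%. The changed entries were drawn from all that passed the filter, and among them a 2-fold change was mostly not called. Recovery at the read numbers of the retained entries alone was not tested. DESeq2 1.42.0 was an alternative. Ratio intervals are exact binomial (Clopper-Pearson, 95%) on pooled counts. They and the floor of 3 counts (0.961 to 2.93 RPM) cover counting error only, as reads carried no molecular identifiers. Groups and replicate numbers came from the titles, which name hermaphrodites although the growth text also speaks of males.

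Named were the 12 entries of highest pooled rate in wild type and RNase-dead, the 5 highest and 5 lowest PAZ-deletion ratios, the 3 RNase-dead ratios nearest to 2, the 3 entries just under 0.5 and the 3 with most antisense reads. The 2 entries called in a sense fit were named after their values were seen. The entries and this rule were chosen with earlier results of these data known. Alternatives were other scalings, read and ratio limits, no count filter, each library left out, and a replicate block.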

Additional observations from a re-analysis of the deposited data

How the results depend on the processing

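The number of retained entries (47) was set mainly by the limits and the denominator. It became 114 with summed sense piRNA counts as the denominator, 113 and 22 with read minimums of 20 and 80, and 26 with a ratio of 0.75. Without single libraries it ran from 37 to 54, and 20 of the 47 were kept under all 9 such settings while 27 dropped out under at least 1. The share of sense reads in wild type was 6.84% without the most abundant entry. The summed rates moved by less than 1 SD.

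Calls among the 47 in sense reads depended on scaling, which moves the median log2 change of all tested entries in PAZ-deletion against wild type from -1.25 to -0.02 when summed piRNA counts set the library size. Against wild type, PAZ-deletion then had 17 called (all higher), 2 with TMM factors and 3 with DESeq2 median-ratio factors. Higher calls over all 1067 tested entries were 78, 23 and 27 under these. Against RNase-dead, PAZ-deletion had 23, 7 and 10 (all higher, beside 94, 30 and 36 of the 1067), 0 with no filter and 0 to 2 without single libraries. RNase-dead against wild type had 2 with piRNA sums (beside 17 of the 1067), 0 with no filter and 0 to 2 without single libraries. For cel-piR-9221 the change against RNase-dead turned to 0.57 with piRNA sums and 0.0303 with DESeq2 median-ratio factors. These contrasts chose the entries, so the calls here and those with a replicate block below are a record only. Causes of these shifts were not tested.

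Antisense calls over all entries were 11 with no filter and 13 to 21 without single libraries for PAZ-deletion against wild type (22). Against RNase-dead (26) they were 16 with DESeq2, 13 with no filter and 14 to 30 without single libraries. RNase-dead against wild type (1) had 0 with DESeq2 and 0 to 1 without single libraries. The antisense change of cel-piR-8767 between PAZ-deletion and RNase-dead ran from -0.0061 (without PAZ-deletion replicate 2) to 0.64 (without PAZ-deletion replicate 1).

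With the replicate number as a block, sense calls among the 47 were 0, 1 and 1 and antisense calls 21, 25 and 1 for PAZ-deletion against wild type, PAZ-deletion against RNase-dead and RNase-dead against wild type. Deviations of same-numbered libraries correlated at 0.121, 0.107 and 0.0619 between wild type and RNase-dead. Differently numbered libraries of these genotypes correlated at -0.109 to 0.00403. In the pairs with PAZ-deletion, same-numbered libraries correlated at -0.0758 to 0.0372 and others at -0.0599 to 0.0546. Whether same-numbered libraries shared more than a number was not tested. Depth limits single entries most, since 3 reads stood for up to 2.93 RPM.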
